A study of Mus musculus with 24 samples.

Results

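Of 24 mouse liver libraries sampled every 4 h, 8 were taken around lights on, and these 8 are described here: all libraries whose names carry ZT24 or ZT04. Zeitgeber time (ZT) counts hours from lights on, so ZT24 is lights on itself and ZT04 lies 4 h into the light. Groups held 2 libraries each, from Hlf-/-/Dbp-/-/Tef-/- mice (knockout) and Hlf+/+/Dbp+/+/Tef+/+ mice (wild type) at each of the 2 times, which set 4 knockout against 4 wild-type libraries. Every mouse had food ad libitum and was 12 to 16 weeks old. The other 16 libraries (ZT08, ZT12, ZT16 and ZT20) served to estimate the spread between replicates and entered 1 comparison with the rest of the day. The knockout lacks all 3 factors at once, so their separate parts cannot be told apart. Strain, sex and the exons removed are not given in the labels. The labels do not tie the 2 libraries of a group to different animals, and each p-value therefore speaks only of the spread between libraries, which may be technical.

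Dbp, Tef and Hlf are transcription factors of the PAR bZip family, named for a region rich in proline and acidic residues beside a basic leucine zipper. They bind the D-box, a short DNA element, and the repressor Nfil3 binds the same element. In liver the core clock drives Dbp strongly and Tef and Hlf less so, and the family is known for passing clock time on to genes of drug metabolism, among them the nuclear receptor Nr1i3 (CAR) and its P450 targets. Dbp protein is abundant toward dusk, so lights on is the part of the day when its messenger is near its trough.

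The libraries held 14613001 to 19288322 counts. Levels are given as CPM, counts scaled to a common library size with the TMM factors of edgeR. CPM compares a gene between libraries, not 1 gene with another, since it takes no account of transcript length. In each list of 4 values, set I (replicate 1) comes first and set P (replicate 2) second at each time. Among these 8, wild-type ZT04 set I stood apart. Its log2 difference from the median of all libraries rose with the GC content of the gene (r = 0.581 over genes), against r of -0.295 to 0.211 in the other 7. The 2 wild-type ZT04 libraries correlated at r = 0.939 on log2 CPM, and the pairs of the other 3 groups at 0.984 to 0.987. Outside the 8, wild-type set I followed GC content too, at r of 0.309 (ZT08), 0.267 (ZT12), 0.609 (ZT16) and 0.648 (ZT20). The wild-type pairs at ZT16 and ZT20 correlated at 0.945 and 0.916. The shared estimate of the spread includes these libraries. Liver markers were high in all 8 libraries, and Cpa1 of pancreatic acinar cells had 0 counts and Adipoq of adipocytes 3 counts over the 8 libraries together. Wild-type ZT04 set P had its own mark, a high level of Lars2 given with the time comparison, so neither library of that group serves as a clean reference. Acta1 of skeletal muscle had 52 counts, most of them in wild-type ZT04 set I, where it reached 2.62 CPM.

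The deleted genes were checked first. Hlf (chromosome 11 from 90336536 to 90390895, minus strand of mm10) stood at 59.9 and 52.1 CPM at ZT24 and 47 and 55 CPM at ZT04 in wild type and at 0.521 and 0.112 CPM at ZT24 and 0.49 and 0.614 CPM at ZT04 in the knockout, a log2 change of -6.98 ± 0.25 (SE). Tef (chromosome 15 from 81802421 to 81826863, plus strand) stood at 42.4 and 48.4 CPM at ZT24 and 107 and 106 CPM at ZT04 in wild type and at 4 and 3.54 CPM at ZT24 and 5.93 and 11.2 CPM at ZT04 in the knockout, a change of -3.61 ± 0.21. Dbp (chromosome 7 from 45705088 to 45710203, plus strand) had 0.459 and 0.279 CPM at ZT24 and 2.99 and 12 CPM at ZT04 in wild type and 0 counts in all 4 knockout libraries, at least 91.3-fold lower when the knockout is set at 3 counts over the group. All 3 genes separated the genotypes without overlap. Adjusted p-values were 2.05e-10, 5.46e-08 and 0.00335 for Hlf, Tef and Dbp (edgeR quasi-likelihood F-test, Benjamini-Hochberg over 15090 genes). Wild-type Dbp was the lowest at ZT24, where its call alone was not made (adjusted p = 0.498), while Hlf hardly differed between the times.

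Averaged over both times, the knockout held 183 genes higher and 240 lower at an adjusted p under 0.05, which is 1.21% and 1.59% of the 15090 genes tested and 2.8% together. Of these 423 genes, 336 code for protein and the median size of change was 1.31 on the log2 scale. In 164 of the 183 all 4 knockout libraries lay above all 4 wild-type libraries, and in 210 of the 240 below them. Over all genes tested, such separation upward was seen in 5.32% and downward in 7.25%. Since wild-type ZT04 set I followed GC content, calls were checked in set P. Within set P, r with GC content was -0.207 at ZT24 and -0.0279 at ZT04 in wild type. In the knockout it was -0.289 and -0.295, so set P still held a GC difference between the genotypes, wider at ZT04. Both set P knockout libraries lay beyond both set P wild-type libraries in the called direction for 403 of the 423 genes (179 higher and 224 lower). Set P is itself part of the data that gave the calls. The share of all genes tested that separated in set P was not counted, so the 403 alone is no check of the calls. A fit of set P alone called 142 genes higher and 133 lower, 178 of them among the 423. Without wild-type ZT04 set I the fit called 103 higher and 110 lower, of which 196 were among the 423. Counts moved with most single libraries: they were 96 and 121 without wild-type ZT24 set I, 116 and 170 without wild-type ZT24 set P, and 216 and 340 without wild-type ZT04 set P. Leaving out a knockout library gave 98 and 110 (ZT24 set I), 120 and 119 (ZT24 set P), 98 and 95 (ZT04 set I) and 122 and 146 (ZT04 set P). A correction for GC content gave 280 and 268. None of the 423 genes changed direction in any of these fits.

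**Figure D1:**
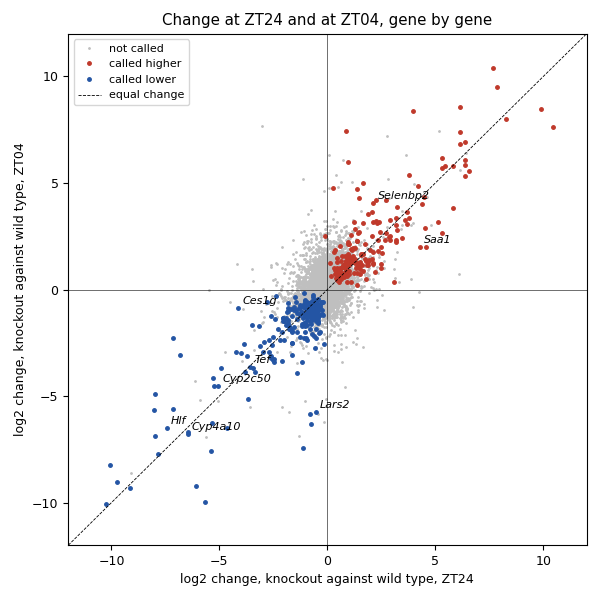
Log2 change of the knockout against wild type at ZT24 (x axis) and at ZT04 (y axis) for the 15090 genes tested, with genes called on the mean of both times in red (183 higher) and blue (240 lower) and the dashed line marking equal change. Of the 423 called genes 422 lie at lower left or upper right, with the same sign at both times. They were called on the mean of both times, which favours this, so it is no test of agreement between the times. Lars2, far below the line, owes its position to 1 wild-type library.

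The deepest falls among genes of drug metabolism were in the Cyp2c family of P450 enzymes on chromosome 19, which oxidise drugs and fatty acids. Cyp2c50 (chromosome 19 from 40089688 to 40113950, plus strand) had 674 and 687 CPM at ZT24 and 699 and 687 CPM at ZT04 in wild type and 26.1 and 14.8 CPM at ZT24 and 20.4 and 38.8 CPM at ZT04 in the knockout. Cyp2c54 had 479.9 and 496 CPM at ZT24 and 518 and 488 CPM at ZT04 in wild type and 16.2 and 9.54 CPM at ZT24 and 12.1 and 32.2 CPM at ZT04 in the knockout. Cyp2c37 had 127 and 130.0 CPM at ZT24 and 111 and 124 CPM at ZT04 in wild type and 8.58 and 7.52 CPM at ZT24 and 8.06 and 22.1 CPM at ZT04 in the knockout. The wild-type libraries of these genes lay close together at both times, and every knockout library lay far below them. Log2 changes were -4.80 ± 0.25 for Cyp2c50, -4.87 ± 0.32 for Cyp2c54 and -3.48 ± 0.27 for Cyp2c37, with adjusted p-values of 1.80e-08, 2.60e-07 and 1.79e-06 (edgeR). Cyp2c29, the neighbour with far more counts, fell by less, from a mean of 3945 ± 326 to 2457 ± 184 CPM (SD, n = 4 each), and its adjusted p of 0.0426 was near the limit. These genes are close copies of each other, and how the authors' counting shared reads among them cannot be checked here.

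Cyp2b10, the classic target of Nr1i3, stood at 19.4 and 16 CPM at ZT24 and 74.2 and 19.4 CPM at ZT04 in wild type and at 0.985 and 1.74 CPM at ZT24 and 1.58 and 1.04 CPM at ZT04 in the knockout, a change of -4.42 ± 0.48 (edgeR adjusted p = 7.81e-05). Its highest value was in wild-type ZT04 set I, and the knockout lay below all 4 wild-type libraries. Nr1i3 itself had 36.3 and 49.9 CPM at ZT24 and 50.3 and 36.9 CPM at ZT04 in wild type and 25.4 and 19.5 CPM at ZT24 and 18.3 and 22.9 CPM at ZT04 in the knockout. It changed by -1.01 ± 0.20 with an adjusted p of 0.0128. That call was lost without knockout ZT04 set I, knockout ZT24 set P, wild-type ZT04 set I or wild-type ZT24 set P, with adjusted p-values of 0.0596 to 0.0705. Of 31 P450 genes of drug metabolism that were tested, 5 fell, 1 rose and 25 were not called (19.4% called, against 2.8% of all genes tested), with a median log2 change of -0.27 against -0.02 over all genes tested. In set P alone 4 fell and 1 rose at a median of -0.10, and without wild-type ZT04 set I 4 fell at a median of -0.17. The gene that rose, Cyp2g1, was barely detected, with 0.153 and 0.111 CPM at ZT24 and 0.915 and 0.573 CPM at ZT04 in wild type and 0.521 and 0.449 CPM at ZT24 and 1.36 and 2.52 CPM at ZT04 in the knockout (log2 change 1.58 ± 0.38, edgeR adjusted p = 0.0334).

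**Figure D2:**
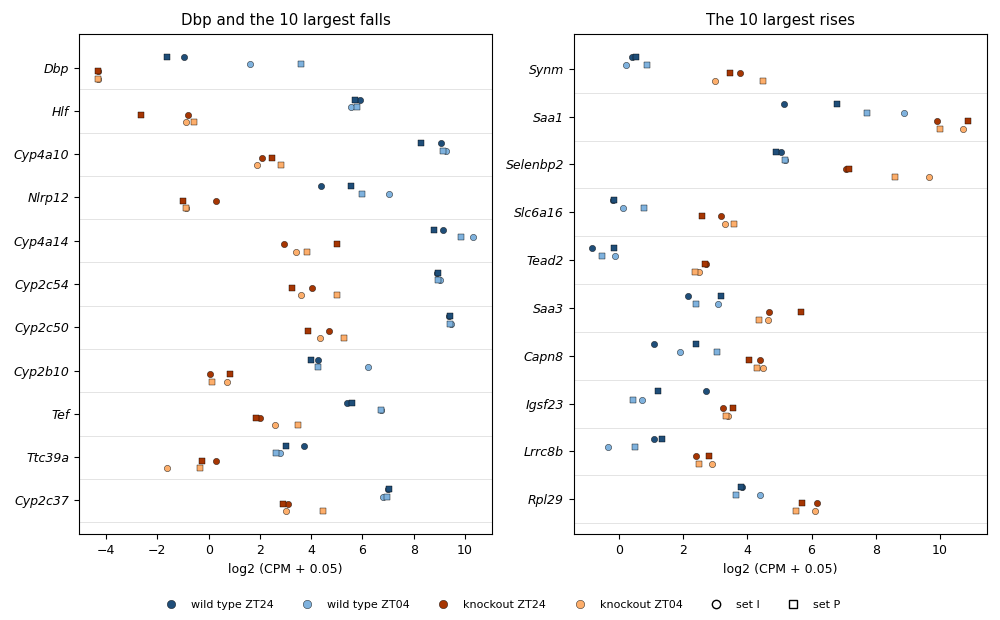
Levels of Dbp and the 10 largest falls (left) and of the 10 largest rises (right) as log2 of CPM plus 0.05, 1 point per library, with wild type in blue, knockout in orange and red, set I as circles and set P as squares. The 10 falls and 10 rises were picked among genes whose 4 knockout points lie beyond the 4 wild-type points, so their separation is no result. Dbp, shown as a deleted gene, separates too. Gaps are wide for Cyp2c50 and Cyp4a10 and narrow for Saa1 and Igsf23.

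Carboxylesterases, which split ester drugs and lipids, fell beside the P450 genes. Ces1g (chromosome 8 from 93302369 to 93337308, minus strand) stood at 142 and 133 CPM at ZT24 and 57.7 and 58.6 CPM at ZT04 in wild type and at 9.16 and 6.46 CPM at ZT24 and 27.3 and 36 CPM at ZT04 in the knockout. The genotypes did not overlap, and the gap was much wider at ZT24 (log2 change -4.14, edgeR adjusted p = 2.20e-04) than at ZT04 (-0.88, adjusted p = 0.287). The difference between those changes was -3.26 ± 0.59 with an unadjusted p of 5.63e-05 and an adjusted p of 0.354, so it did not pass. Ces1d had 841 and 841 CPM at ZT24 and 699.8 and 415 CPM at ZT04 in wild type and 195 and 246 CPM at ZT24 and 177 and 172 CPM at ZT04 in the knockout, a change of -1.81 ± 0.21 with an adjusted p of 1.54e-04. Ces1e had 170.4 and 198 CPM at ZT24 and 146 and 144 CPM at ZT04 in wild type and 91.7 and 84.7 CPM at ZT24 and 83.1 and 80.9 CPM at ZT04 in the knockout, a change of -0.94 ± 0.17. Aldh1a1, a retinaldehyde dehydrogenase, dropped from a mean of 1757 ± 137 to 773 ± 168 CPM (SD, n = 4 each), a change of -1.21 ± 0.14. Of 27 carboxylesterases and other phase I enzymes 5 fell (these 4 and Ces1b), none rose (18.5% called, against 2.8% of all genes tested), and the median was -0.38. In set P alone 4 fell at a median of -0.21, and without wild-type ZT04 set I 4 fell at a median of -0.23. Neighbouring Ces1 genes are also close copies.

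D-box letters were then looked for near the start sites of the genes that fell. The letters searched were TTATGTAA and TTACGTAA on both strands, without overlap between them, in RefSeq windows of GRCm38.p6 from 250 bases before to 50 after each start. Of 167 genes called lower with such a window, 8 (4.79%) held the letters, against 0 of 107 called higher, 96 of 10625 not called (0.904%) and 333 of all 27025 genes of the table (1.23%). Counted over windows, the shares were 5.02% of 219, 0% of 150, 0.729% of 13581 and 1.06% of 32851. The 8 genes were Ces1g, Ces1e, Ces1b, Alb, Ak4, Hdgf and the gene models 4931406C07Rik and Gm19522. Ces1b and Ak4 have several overlapping windows, and Alb holds the letters at a pair of places. The 3 stretches below belong to the genes of the naming rule that fell and hold the letters, shown 5′ to 3′ along the gene's own strand with every match in capitals, which in Alb includes TTACATAA, the letters TTATGTAA of the other strand.
Ces1g: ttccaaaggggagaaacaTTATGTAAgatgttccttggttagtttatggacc
Ces1e: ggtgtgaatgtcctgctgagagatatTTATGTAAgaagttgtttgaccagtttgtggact
Alb: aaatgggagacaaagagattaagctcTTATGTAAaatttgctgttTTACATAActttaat
They lie at chr8:93337408-93337459 on the minus strand, chr8:93229667-93229726 on the minus strand and chr5:90460621-90460680 on the plus strand, with the first match starting 232, 81 and 223 bases before the start site and the second of Alb 204 bases before it. Of the 47 named falls without the deleted genes 34 matched the table. The windows of Nlrp12, Cyp2c50 and Cyp2b10, deep falls that matched, do not hold these letters. A match of letters is a description of the window and shows no binding.

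**Figure D3:**
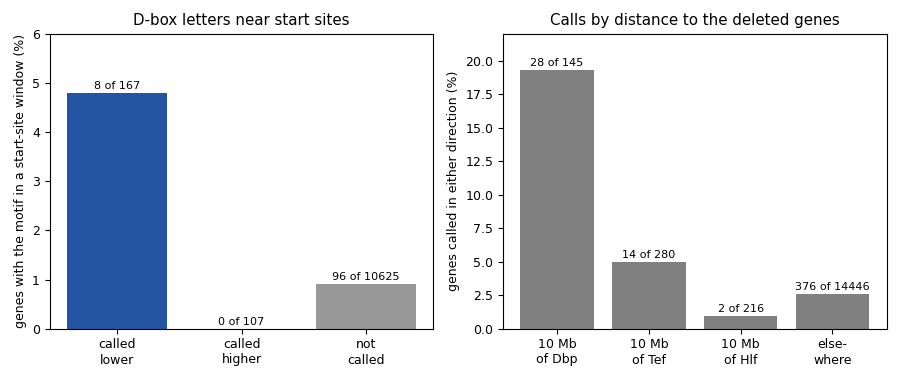
Left, share of genes (%) with D-box letters in a start-site window among genes called lower, called higher and not called. Right, share of genes (%) called in either direction within 10 Mb of Dbp, Tef or Hlf and elsewhere, with the number of genes over each bar. The bar of genes called lower reaches 4.79% on the left, and the bar around Dbp reaches 19.3% on the right against 2.6% elsewhere.

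Fatty acid omega-hydroxylases of the Cyp4a family are well-known targets of the nuclear receptor PPAR-alpha, and 2 of them, Cyp4a10 and Cyp4a14, fell most. Cyp4a10 (chromosome 4 from 115518264 to 115533649, plus strand) stood at 541 and 316 CPM at ZT24 and 617 and 564 CPM at ZT04 in wild type and at 4.17 and 5.45 CPM at ZT24 and 3.65 and 6.94 CPM at ZT04 in the knockout. Cyp4a14 stood at 569 and 438 CPM at ZT24 and 1280 and 933 CPM at ZT04 in wild type and at 7.53 and 32.1 CPM at ZT24 and 10.5 and 14.2 CPM at ZT04 in the knockout. In both genes the highest knockout library was far under the lowest wild-type library. Cyp4a10 changed by -6.64 ± 0.57 (edgeR adjusted p = 5.72e-06), Cyp4a14 by -5.58 ± 0.83 (0.00127) and Cyp4a31 by -2.87 ± 0.42 (0.00104). Cyp4a32, a close copy, had an adjusted p of 0.0479 at a change of -1.12 ± 0.28.

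Of 43 PPAR-alpha targets and genes of fatty acid oxidation 10 fell and none rose (23.3% called lower, against 1.59% of all genes tested), and 39 had a negative change, with a median of -0.38. Over all genes tested 7761 of 15090 changes were negative. The 10 were the 4 Cyp4a genes, the acyl-CoA thioesterases Acot1, Acot3 and Acot4, the peroxisomal enzyme Ehhadh, the acyl-CoA dehydrogenase Acadl and the ketone body enzyme Bdh1. Acot1 had 24.3 and 21.1 CPM at ZT24 and 37.1 and 21.1 CPM at ZT04 in wild type and 10.5 and 12.2 CPM at ZT24 and 5.88 and 6.08 CPM at ZT04 in the knockout, a change of -1.64 ± 0.30, without overlap. Acadl moved least, by -0.40 ± 0.10 at an adjusted p of 0.049. The list's median was -0.17 at ZT24, with 1 member called, and -0.67 at ZT04, with 6 called. In set P alone 5 members fell at a median of -0.22, and 5 fell without wild-type ZT04 set I (median -0.26). Without the other single libraries 4 to 9 fell. Acot1, Acot3 and Acot4 were among those lost in set P (adjusted p = 0.087, 0.548 and 0.223). Acot3 also lost its call without knockout ZT04 set I, knockout ZT04 set P or wild-type ZT04 set I (adjusted p 0.0506 to 0.102) and Acot4 without knockout ZT04 set I or knockout ZT24 set I (0.0626 to 0.065). Cyp17a1, Fgf21 and Slc25a30, outside these counts, are described with the time comparison.

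Of 40 conjugating enzymes 2 fell and none rose (5% called, against 2.8% of all genes tested), with a median of -0.05, or 0.06 without wild-type ZT04 set I. Both are glutathione S-transferases of the alpha class. Gsta2 stood at 24 and 28.5 CPM at ZT24 and 53.2 and 29.4 CPM at ZT04 in wild type and at 7.47 and 9.32 CPM at ZT24 and 9.74 and 11.4 CPM at ZT04 in the knockout, a change of -1.81 ± 0.25 (edgeR adjusted p = 6.15e-04). Gsta3, at a far greater number of counts, went from a mean of 1720 ± 253 to 884 ± 104 CPM (SD, n = 4 each) and changed by -0.96 ± 0.16 (0.00255). Both separated the genotypes without overlap. Cpox, an enzyme of heme synthesis, changed by -0.58 ± 0.14 at an adjusted p of 0.0404, and that call was lost without any single library of the 8 except wild-type ZT04 set P (adjusted p 0.0584 to 0.175). Of 20 drug and anion transporters 1 was called (5%), Abcc6, which rose from a mean of 143 ± 17.3 to 287 ± 35.8 CPM (n = 4 each) and lies within 10 Mb of Dbp.

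Bile acid genes gave 2 falls among 13 (15.4%, against 2.8% of all genes tested). Cyp39a1, which hydroxylates oxysterols, had 55.6 and 44.9 CPM at ZT24 and 57 and 57.8 CPM at ZT04 in wild type and 5.1 and 27 CPM at ZT24 and 9.31 and 10.6 CPM at ZT04 in the knockout. It changed by -2.08 ± 0.39 (edgeR adjusted p = 0.00854), and without knockout ZT04 set I the adjusted p was 0.0615. Slc27a5, which joins bile acids to coenzyme A, changed by -0.93 ± 0.22 (0.0366), a call lost without any single library of the 8 except wild-type ZT04 set P (adjusted p 0.0849 to 0.194). Cholesterol synthesis had no called member among 26, yet 21 of the changes were positive and the median was 0.41, or 0.26 without knockout ZT24 set P. In set P alone 3 of its members were called higher.

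Of 13 hepatocyte markers 1 was called (7.69%, against 2.8% of all genes tested), and 11 had a negative change at a median of -0.34, or -0.22 without wild-type ZT04 set I. The called gene, Alb or serum albumin (chromosome 5 from 90460897 to 90476602, plus strand), stood at 75139 and 72478 CPM at ZT24 and 52033 and 62705 CPM at ZT04 in wild type and at 39962 and 35612 CPM at ZT24 and 28403 and 33223 CPM at ZT04 in the knockout. The highest knockout library lay below the lowest wild-type library, and the change was -0.93 ± 0.18 with an edgeR adjusted p of 0.0118. Its call was lost without knockout ZT04 set I, knockout ZT24 set P or wild-type ZT24 set I (adjusted p 0.0527 to 0.0803). Genes of the growth hormone and IGF list and an amino acid enzyme follow. Igfbp1, a binding protein of insulin-like growth factors that responds to fasting, had 67.5 and 89.5 CPM at ZT24 and 108 and 43.9 CPM at ZT04 in wild type and 14.9 and 13.6 CPM at ZT24 and 6.97 and 7.43 CPM at ZT04 in the knockout, a change of -2.93 ± 0.38 (adjusted p = 3.87e-04). Igfbp2 went from a mean of 535 ± 32.6 to 227 ± 33.1 CPM (SD, n = 4 each) and changed by -1.24 ± 0.20, a call that the GC correction removed. Onecut1, a hepatocyte transcription factor, rose by 1.52 ± 0.38 at an adjusted p of 0.0458, lost without any of the 8 libraries (0.0609 to 0.169). Oat, ornithine aminotransferase, fell from a mean of 842 ± 289 to 464 ± 203 CPM (SD, n = 4 each), a change of -0.91 ± 0.15 with an edgeR adjusted p of 0.0026.

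Under the naming rule, which leaves out pseudogenes, gene models and low genes, the largest rise was that of Synm, an intermediate filament protein, which had 1.27 and 1.39 CPM at ZT24 and 1.1 and 1.79 CPM at ZT04 in wild type and 13.6 and 11 CPM at ZT24 and 7.84 and 22.1 CPM at ZT04 in the knockout. It changed by 3.29 ± 0.37 (edgeR adjusted p = 1.17e-04). The selenium-binding protein gene Selenbp2 had 33.1 and 29.9 CPM at ZT24 and 35.9 and 35.7 CPM at ZT04 in wild type and 134 and 142 CPM at ZT24 and 807 and 389 CPM at ZT04 in the knockout, a change of 3.10 ± 0.29 (1.84e-05). Wild-type values of both were nearly level, and the knockout was highest at ZT04 for Selenbp2. Tead2, which encodes a DNA-binding partner of Hippo signalling, had 0.51 and 0.836 CPM at ZT24 and 0.854 and 0.645 CPM at ZT04 in wild type and 6.49 and 6.29 CPM at ZT24 and 5.55 and 5.1 CPM at ZT04 in the knockout, and its neighbour Slc6a16 0.816 and 0.836 CPM at ZT24 and 1.04 and 1.65 CPM at ZT04 and 8.92 and 5.95 CPM at ZT24 and 9.8 and 11.8 CPM at ZT04. Both lie within 10 Mb of Dbp. The acute phase genes Saa1 and Saa3 lie there too. Saa1 had 35.5 and 110.1 CPM at ZT24 and 468 and 212 CPM at ZT04 in wild type and 967 and 1872 CPM at ZT24 and 1688 and 1026 CPM at ZT04 in the knockout, so the wild-type libraries spanned more than the knockout ones in proportion. Its adjusted p of 0.032 rose to 0.0547 to 0.168 when any of the 8 libraries was left out, and set P alone did not call it. Saa3 changed by 2.12 ± 0.29 (7.28e-04) and kept its call in each of these fits. Of 28 acute phase genes these 2 rose and Hamp, the iron hormone hepcidin, fell (10.7% called, against 2.8% of all genes tested). Hamp went from a mean of 291 ± 117 to 82.6 ± 29.2 CPM (SD, n = 4 each), and its adjusted p of 0.033 became 0.0615 to 0.148 without any of the 8 libraries.

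Among the other large changes, Nlrp12, a NOD-like receptor, had 20.9 and 47 CPM at ZT24 and 129.9 and 62.8 CPM at ZT04 in wild type and 1.16 and 0.449 CPM at ZT24 and 0.49 and 0.491 CPM at ZT04 in the knockout. Ttc39a, a protein with tetratricopeptide repeats, had 13.1 and 8.13 CPM at ZT24 and 6.89 and 6.09 CPM at ZT04 in wild type and 1.16 and 0.786 CPM at ZT24 and 0.272 and 0.737 CPM at ZT04 in the knockout. Neither overlapped between the genotypes, which the naming rule required. Both were called at each time alone, with changes of -6.49 ± 0.45 and -3.57 ± 0.36 over the mean of the times. Lrrc8b, a subunit of the volume-regulated anion channel, rose by 2.02 ± 0.39 at an adjusted p of 0.0102, with 0.0524 to 0.064 without knockout ZT04 set I, wild-type ZT04 set I or wild-type ZT24 set I. Capn8, a calpain protease, rose by 2.09 ± 0.53 at 0.0488, and that call was lost without any of the 8 libraries (0.0505 to 0.237). Igsf23 of the immunoglobulin superfamily rose by 2.04 ± 0.28 (5.74e-04).

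Among 16 core clock genes only Cry1, a repressor of Clock and Arntl, was called (6.25%, against 2.8% of all genes tested). It had 40.8 and 34.9 CPM at ZT24 and 18.6 and 15.3 CPM at ZT04 in wild type and 18.4 and 27.6 CPM at ZT24 and 7.46 and 5.41 CPM at ZT04 in the knockout, a change of -1.06 ± 0.19 with an edgeR adjusted p of 0.0047. At ZT04 both knockout libraries lay below both wild-type libraries by a wide margin, while at ZT24 knockout set P came nearer to wild type. Pooled over the times the genotypes overlapped, because wild-type Cry1 was itself lower at ZT04. The fall was called at ZT04 (-1.40, adjusted p = 0.017) and not at ZT24 (-0.72, 0.473), but the difference between the times did not pass (unadjusted p = 0.0844). Cry1 kept its call without each of the 8 libraries and in set P, and lost it in the fit of the 8 libraries alone (adjusted p = 0.0565) and with time plus genotype in those 8 (0.0626).

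Nr1d1, the repressor REV-ERB-alpha, which lies within 10 Mb of Hlf, had 2.29 and 7.3 CPM at ZT24 and 85.7 and 82.1 CPM at ZT04 in wild type and 30.9 and 12 CPM at ZT24 and 77 and 86.2 CPM at ZT04 in the knockout. Its ZT24 values were higher in both knockout libraries, and its ZT04 values were level. The change at ZT24 was 2.16 with an adjusted p of 0.143, and the difference between the times had an unadjusted p of 0.0114 and an adjusted p of 0.919. Arntl, the activator BMAL1, had 40.7 and 46.1 CPM at ZT24 and 37.6 and 21 CPM at ZT04 in wild type and 41.4 and 41.1 CPM at ZT24 and 25.1 and 19.4 CPM at ZT04 in the knockout, a change of -0.23 ± 0.18 (0.518). Nfil3, the repressor that shares the D-box, changed by -0.33 ± 0.19 (0.398). Clock and Rora were low in wild-type ZT04 set I alone, where Clock stood at 9.33 CPM against 62.2 to 118 CPM in the other 7 libraries. The list's median was -0.13, and it was -0.01 without wild-type ZT04 set I and 0.29 without wild-type ZT04 set P. Of 20 clock output genes none was called, at a median of -0.33 (-0.13 in set P). Set P alone called 1 higher and 1 lower, DESeq2 1 and 2, and the GC correction and the set block 1 lower each. Usp2, a ubiquitin protease, came nearest with a change of -1.01 ± 0.27 and an adjusted p of 0.065.

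**Figure D4:**
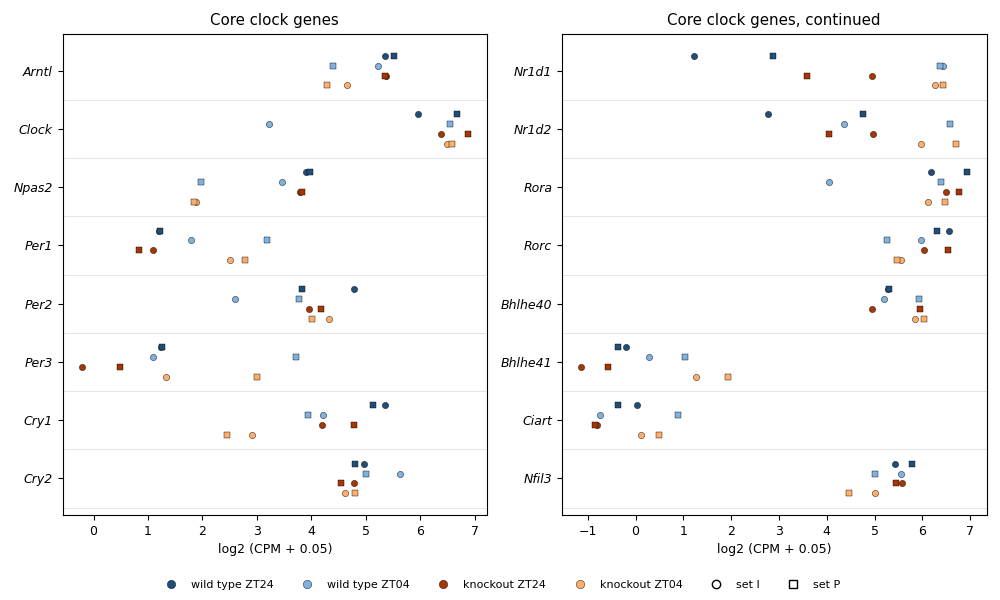
Levels of the 16 core clock genes as log2 of CPM plus 0.05, 1 point per library, coloured by genotype and time with set I as circles and set P as squares. Cry1 is the called gene, with the 2 knockout ZT04 points lowest, and the lone low points of Clock and Rora are wild-type ZT04 set I.

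MHC class II genes, which present antigen and mark dendritic cells, B cells and macrophages, gave 4 falls among 7 (Ciita, H2-Ab1, H2-DMa and H2-DMb1; 57.1%, against 1.59% of all genes tested called lower), and all 7 changes were negative with a median of -0.94. H2-Ab1 had 95.6 and 91.4 CPM at ZT24 and 118 and 83.2 CPM at ZT04 in wild type and 68.9 and 49 CPM at ZT24 and 26.6 and 49.6 CPM at ZT04 in the knockout, a change of -1.03 ± 0.24 (edgeR adjusted p = 0.0294). Ciita, the master activator of these genes, had 12.7 and 12.9 CPM at ZT24 and 10.8 and 8.31 CPM at ZT04 in wild type and 7.65 and 5.89 CPM at ZT24 and 3.1 and 5.04 CPM at ZT04 in the knockout. The knockout was below wild type in both genes without overlap. H2-DMa and H2-DMb1 changed by -0.94 ± 0.20 and -0.90 ± 0.18. H2-Ab1 lost its call without any single library of the 8 except wild-type ZT04 set P and knockout ZT04 set P (adjusted p 0.0516 to 0.135) and Ciita without any single library of the 8 except wild-type ZT04 set P (0.0505 to 0.185). H2-DMa lost it without any single library of the 8 except wild-type ZT24 set P, wild-type ZT04 set P and knockout ZT04 set P (0.0511 to 0.0995), and H2-DMb1 without knockout ZT04 set I, knockout ZT24 set P, wild-type ZT04 set I or wild-type ZT24 set I (0.0527 to 0.0894). In set P none of the 7 was called at a median of -0.79, none without wild-type ZT04 set I (median -0.81), and all 7 with the set letter as a block. The GC correction removed the calls of Ciita, H2-Ab1, H2-DMa and H2-DMb1 and called 1 of the 7 lower, at a median of -0.74. With the set block and GC correction together all 7 were called. The summed level of the list was 478.2 to 737.1 CPM in wild type and 185.3 to 456.6 CPM in the knockout. Lymphocyte markers had no called member among 15 (median -0.51, or -0.02 without wild-type ZT24 set P, -0.22 without wild-type ZT04 set I and -0.31 without knockout ZT24 set I, summed level 27 to 40.6 CPM in wild type and 24.4 to 30.6 CPM in the knockout). Kupffer cell markers had none of 14 (median 0.03, or 0.25 without wild-type ZT04 set I and -0.06 without wild-type ZT04 set P), and Clec4f, their defining gene, stood at 116 to 159 CPM in wild type and 119 to 147 CPM in the knockout. In bulk tissue, fewer cells of a type and less RNA per cell cannot be told apart, and the part of cell makeup in these values was not tested.

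Of 22 genes of the unfolded protein and amino acid stress responses 3 fell, Herpud1, Trib3 and Atf5 (13.6%, against 2.8% of all genes tested), at a median of -0.38. Herpud1 changed by -0.85 ± 0.19, Trib3 by -1.13 ± 0.26 and Atf5, which lies within 10 Mb of Dbp, by -0.85 ± 0.21. Their edgeR adjusted p-values were 0.0241, 0.0306 and 0.0434. The GC correction removed the calls of Trib3 and Atf5, with 2 of the list called lower in that fit. Herpud1 lost its call without any single library of the 8 except wild-type ZT24 set P and wild-type ZT04 set P (adjusted p 0.0537 to 0.0978). Trib3 lost it without any single library of the 8 except wild-type ZT24 set I, wild-type ZT04 set P and knockout ZT04 set P (0.105 to 0.14), and Atf5 without any single library of the 8 except wild-type ZT04 set P (0.0819 to 0.218). Set P alone called 2 of the list lower. Without wild-type ZT04 set I none was called (median -0.27), and without wild-type ZT24 set I the median was -0.20. Interferon response genes had no call among 30, with 23 positive changes and a median of 0.29, or 0.55 without knockout ZT24 set I. Set P called 1 higher at a median of 0.62. Respiratory chain genes of the nucleus had none of 77 at a median of -0.29, with 70 negative changes. Wild-type ZT04 set I bears on this list, whose median was -0.16 without it. Mitochondrial ribosomal proteins gave 2 falls of 76, Mrps12 and Mrpl38, a share of 2.63% that is near the 2.8% of all genes tested, and the GC correction removed both. Mrps12 was also lost without knockout ZT04 set I, knockout ZT04 set P, knockout ZT24 set P or wild-type ZT24 set I (adjusted p 0.0595 to 0.0747) and Mrpl38 without any single library of the 8 except wild-type ZT24 set P, wild-type ZT04 set P and knockout ZT24 set P (0.0628 to 0.13).

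Cytosolic ribosomal protein genes gave 1 rise and 2 falls among 83 (3.61%, near the 2.8% of all genes tested) at a median of -0.28, and 76 of the changes were negative. Rpl29 rose from 14.3 and 14 CPM at ZT24 and 20.9 and 12.5 CPM at ZT04 in wild type to 72.3 and 51.9 CPM at ZT24 and 68.4 and 45.8 CPM at ZT04 in the knockout, a change of 1.95 ± 0.26 (edgeR adjusted p = 6.00e-04). Rpl3, within 10 Mb of Tef, fell from 252 and 249 CPM at ZT24 and 297 and 211 CPM at ZT04 to 144 and 144 CPM at ZT24 and 126 and 126 CPM at ZT04, a change of -0.91 ± 0.14. Rps15a, on chromosome 7, changed by -0.53 ± 0.12, a call lost without any single library of the 8 except wild-type ZT04 set P and knockout ZT04 set P (adjusted p 0.0623 to 0.167). Ribosomal genes have many processed copies that can share their reads.

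**Figure D5:**
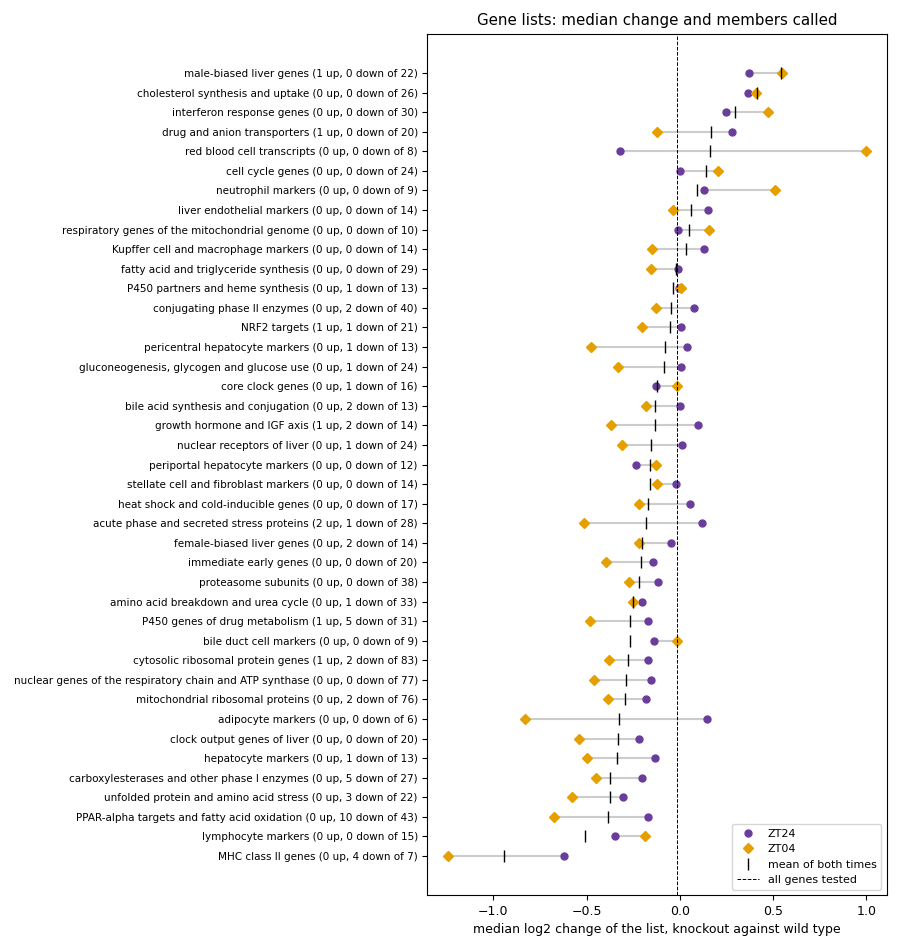
Median log2 change of each gene list with at least 5 tested members at ZT24 (purple circles), at ZT04 (orange diamonds) and for the mean of both (black ticks), with the numbers of members called higher and lower beside each name and the dashed line marking the median of all genes tested (-0.02). MHC class II genes sit lowest at -0.94, and most metabolic lists lie further left at ZT04 than at ZT24. The ZT04 medians include wild-type ZT04 set I, which followed GC content, and its part in that shift was not tested.

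Taken alone, ZT24 gave 102 called genes (44 higher and 58 lower, 0.676% of those tested) and ZT04 gave 190 (85 higher and 105 lower, 1.26%). Both times called 64 genes, all in the same direction (30 higher and 34 lower), which is 62.7% of the ZT24 calls and 33.7% of the ZT04 calls. Across the 15090 genes the changes at the 2 times correlated at r = 0.579, and at 0.906 across the 423 called genes, which were chosen on the mean of both times. Genes are not independent replicates. Of the 423 genes 219 were called at neither time alone. The ZT04 counts rested most on single libraries: they were 21 higher and 42 lower without wild-type set I, 100 and 246 without wild-type set P, 28 and 13 without knockout set I and 38 and 26 without knockout set P. At ZT24 they were 17 and 26 without wild-type set I, 16 and 32 without wild-type set P, 20 and 18 without knockout set I and 30 and 31 without knockout set P.

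The test of the difference between the times called no gene by edgeR (0%), with 658 genes at an unadjusted p under 0.05, and DESeq2 called 5 (Fgf21 and Slc25a30 positive, Ces1g, Neat1 and Cox6b2 negative). Genes of smallest p are given as values only. Neat1, a nuclear long noncoding RNA, had 499 and 299.9 CPM at ZT24 and 109.6 and 130.3 CPM at ZT04 in wild type and 409 and 335 CPM at ZT24 and 622 and 738 CPM at ZT04 in the knockout. Wild-type Neat1 was lower at ZT04 than at ZT24 and knockout Neat1 higher, with an unadjusted p of 9.38e-05 for the difference of -2.61 ± 0.49 (adjusted p = 0.354). Fgf21, a fasting hormone within 10 Mb of Dbp, had 2.29 and 1.73 CPM at ZT24 and 16.8 and 10.8 CPM at ZT04 in wild type and 1.8 and 10.8 CPM at ZT24 and 2.56 and 1.72 CPM at ZT04 in the knockout, with a difference of 4.33 ± 0.95 (unadjusted p = 3.57e-04, adjusted p = 0.61). Slc25a30, a mitochondrial carrier, had 18.5 and 25.8 CPM at ZT24 and 172 and 68.1 CPM at ZT04 in wild type and 58.3 and 48 CPM at ZT24 and 30.3 and 34.8 CPM at ZT04 in the knockout, a difference of 3.15 ± 0.59. Cyp17a1, a steroid hydroxylase, had 7.6 and 4.57 CPM at ZT24 and 118 and 30.8 CPM at ZT04 in wild type and 11.9 and 19.4 CPM at ZT24 and 16.3 and 14.9 CPM at ZT04 in the knockout. In Slc25a30 and Cyp17a1 the highest value by far was wild-type ZT04 set I.

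The call of Lars2 rested on 1 library, and other genes were called at ZT24 and not at ZT04. Lars2, a mitochondrial leucyl-tRNA synthetase, had 178 and 68.9 CPM at ZT24 and 252 and 9042 CPM at ZT04 in wild type and 96.4 and 75.1 CPM at ZT24 and 76.7 and 97.7 CPM at ZT04 in the knockout. Its change of -3.13 ± 0.74 became -0.99 without wild-type ZT04 set P, and its adjusted p of 0.033 was 0.128 to 0.164 without any single library of the 8 except wild-type ZT24 set P and wild-type ZT04 set I. The same library held the ribosomal RNA gene n-R5-8s1 at 229.7 CPM, against at most 7.62 CPM in the other 7. Scara5, a ferritin receptor, rose at ZT24 (2.22, adjusted p = 0.0283) from 6.07 and 16.6 CPM at ZT24 and 29.8 and 24.3 CPM at ZT04 in wild type to 57.5 and 47.5 CPM at ZT24 and 53 and 43.6 CPM at ZT04 in the knockout. Adgrv1, an adhesion receptor, changed by 3.10 at ZT24 (0.012) and by 0.34 at ZT04 (0.691). Over the mean of the times, Scara5 lost its call without knockout ZT04 set I, knockout ZT24 set I or wild-type ZT24 set I (adjusted p 0.0506 to 0.0535), in set P alone (0.192) and in the fit of the 8 libraries (0.0732), and Adgrv1 without any single library of the 8 except wild-type ZT04 set P, knockout ZT24 set P and knockout ZT04 set I (0.0614 to 0.0997). Mthfd1l, an enzyme of mitochondrial folate metabolism, changed by -2.41 at ZT24 (0.0173), and its call over the mean was lost in set P alone (0.0927) and in the fit of the 8 libraries (0.0897). None of these differences between the times passed.

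Set against the genotype difference at the other 4 times, the one around lights on differed for no gene by edgeR (0%), with 594 genes at an unadjusted p under 0.05, and DESeq2 called 15, Igfbp1 among them with an adjusted p of 1.81e-05. Its wild-type mean was 32 CPM at the other times and its knockout mean 26.6 CPM, a log2 change of -0.31 there against -2.93 ± 0.38 around lights on. The difference of -2.62 ± 0.44 had an unadjusted p of 2.69e-05 and an adjusted p of 0.203 by edgeR. Nmrk1, which phosphorylates nicotinamide riboside, changed by -0.64 ± 0.11 around lights on and by -1.28 at the other times (adjusted p of the difference 0.401). Lonrf1, a RING finger protein, changed by -1.77 ± 0.22 and -3.03 (0.401), and Tmc7, of the transmembrane channel-like family, by -1.81 ± 0.26 and -0.35 (0.401). Alas1, the first enzyme of heme synthesis, had 49.7 and 41.5 CPM at ZT24 and 152 and 199 CPM at ZT04 in wild type and 72.8 and 149 CPM at ZT24 and 499 and 249 CPM at ZT04 in the knockout, a change of 1.19 ± 0.38 that was not called (0.13), against -0.77 at the other times (0.565). For Cyp2c50, Cyp2c54 and Aldh1a1 the differences from the other times were 0.26 ± 0.26, 0.09 ± 0.33 and 0.00 ± 0.17.

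The other lists gave 3 calls or fewer each, set here against 2.8% of all genes tested. Growth hormone and IGF genes had 1 higher (Onecut1) and 2 lower (Igfbp1 and Igfbp2) of 14 (21.4%), genes of glucose use 1 lower of 24 (Igfbp1, 4.17%), and genes of amino acid breakdown and pericentral markers 1 lower each (Oat) of 33 (3.03%) and 13 (7.69%). Of 21 NRF2 targets (9.52% called) 1 rose, Ugdh, which makes UDP-glucuronate (change 0.63 ± 0.15, edgeR adjusted p = 0.0309), and Gsta2 fell. The GC correction removed the call of Ugdh. Ugdh lost its call without any single library of the 8 except wild-type ZT04 set P (adjusted p 0.0536 to 0.148). Male-biased genes had Selenbp2 higher of 22 (4.55%, median 0.54, or 0.34 without wild-type ZT04 set I), and female-biased genes Acot3 and Acot4 lower of 14 (14.3%), neither of them in set P. P450 partners and heme enzymes had Cpox of 13 (7.69%), and nuclear receptors Nr1i3 of 24 (4.17%). Of 29 genes of fatty acid synthesis none was called, and set P alone called 3 higher. No member was called among 17 heat shock genes, 20 immediate early genes, 24 cell cycle genes, 38 proteasome subunits and 10 genes of the mitochondrial genome. Nor was any called among 12 periportal, 14 endothelial, 14 stellate, 9 bile duct, 9 neutrophil, 8 red blood cell, 6 adipocyte, 2 pancreatic acinar and 1 skeletal muscle markers.

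The share of genes called differed between the surroundings of the 3 deleted genes, given here as counts alone. Within 10 Mb of Dbp on chromosome 7, 28 of 145 tested genes were called (19.3%, 11 higher and 17 lower), against 14 of 280 around Tef (5%), 2 of 216 around Hlf (0.926%) and 376 of 14446 elsewhere (2.6%). The deleted genes are left out of these counts and are kept in the chromosome counts that follow. Chromosome 7 held 100 called genes of 1187 (8.42%), and its part farther than 10 Mb from Dbp 71 of 1041 (6.82%), against 323 of 13903 on all other chromosomes (2.32%). The chromosome was looked at as a whole after these values were seen. Genes above that are on chromosome 7 beyond that distance include Synm, Nlrp12, Cyp2b10, Hamp, Oat, Igsf23, Rps15a and the uncalled Arntl. This is not a full list. Loss of the factors and any other difference between the genotypes on this chromosome cannot be told apart by this design.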

How the data were processed

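Liver messenger RNA of wild-type and triple-knockout mice was sequenced from TruSeq Stranded mRNA libraries, per the labels' protocols. The authors deposited raw read counts per Ensembl gene. The submitters' processing notes name STAR 2.4.0i and mm10. The tool, annotation and strand used for counting are not given in these sources, so overlapping, antisense and near-identical genes cannot be checked. Of 54532 genes 54495 matched a GENCODE M21 symbol. All 24 libraries entered 1 fit of 12 group means (edgeR 4.0.16, R 4.3.3, TMM, filterByExpr by group with a minimum of 10 counts, 15090 genes, quasi-likelihood F-test), with Benjamini-Hochberg adjustment and calls at an adjusted p under 0.05. Contrasts were the genotype difference for the mean of ZT24 and ZT04, at each time, between the times and against the other 4 times. Standard errors were derived from the fitted change and its F value. CPM uses TMM-scaled sizes. The script was tested on simulated data.

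Alternatives were DESeq2 1.42.0, other scaling, no filter, GC correction (99.94% of genes tested had a value), a set block, fewer libraries and leaving out each library. The members and the 44 gene lists were chosen with earlier results of these data known, and lists are described by counts and medians without a set test. Named are the deleted and core clock genes, the 10 largest called rises and falls with no overlap and a mean log2 CPM of at least 1, up to 4 called members per list by p, genes called at 1 time only, and the smallest p of both difference tests. Clone names, gene models and -ps pseudogenes are passed over in that rule. Other genes were named after their values were seen. The list gene Cyp2c44 was not found in the table's annotation. Named genes without a result of their own are left out.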

Additional observations from a re-analysis of the deposited data

How the results depend on the processing

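No called gene of the mean contrast changed direction under any alternative. Of 69 named and called genes, 29 kept their call under all alternatives, 40 kept it without each of the 8 libraries and 22 lost it in set P alone. Numbers of genes called follow as higher and lower. The mean contrast (183 and 240) gave 672 and 402 without a low-count filter, 96 and 91 with the 8 libraries alone, 98 and 104 with time plus genotype in those 8, 280 and 268 after GC correction, 142 and 133 in set P, and 258 and 323 with DESeq2. Without a filter, p-values became extreme even for Lars2, whose level rests on 1 library (adjusted p 1.25e-50), and the cause was not tested. ZT24 (44 and 58) gave 77 and 86 with DESeq2, 173 and 170 unfiltered, and 31 and 31 with the 8 libraries. ZT04 (85 and 105) gave 158 and 184 with DESeq2, 132 and 121 after GC correction, 746 and 333 unfiltered, 35 and 34 with the 8 libraries, and 47 and 53 in set P. The difference between the times (0 and 0) gave 2 and 3 with DESeq2, 58 and 45 unfiltered, and 10 and 2 without the 6 wild-type set I libraries, most of the 10 being Lars2 and ribosomal or small RNA. Lights on against the other times (0 and 0) gave 11 and 4 with DESeq2, 55 and 53 unfiltered, and 1 and 4 without those 6 libraries. Without 1 library the counts ran from 96 to 216 higher and 95 to 340 lower for the mean, 16 to 49 and 18 to 61 at ZT24, 21 to 100 and 13 to 246 at ZT04, 0 to 4 and 0 to 1 for the difference between the times, and 0 to 0 and 0 to 1 against the other times.

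With the set letter as a replicate block, the fit called 250 and 400 for the mean, 53 and 72 at ZT24, 136 and 234 at ZT04, 0 and 0 for the difference between the times, and 1 (Gm2788) and 0 against the other times. With the replicate block and GC correction together it called 334 and 349, 71 and 90, and 181 and 195. The labels do not say that a letter marks a shared animal or batch. In every group r with GC content was higher in set I than in set P. At ZT24 it was -0.0282 against -0.289 in the knockout and 0.211 against -0.207 in wild type. The letter thus goes with a GC difference between libraries, whose source was not tested. Deviations of same-letter libraries over the 15090 genes correlated at 0.184, 0.123, 0.231, 0.0705, 0.0541 and 0.0842 from ZT04 to ZT24. All 6 are positive but 3 are under 0.1. On that cut, which leaves the GC difference aside, the letters were not taken as pairs in the main fit. Other versions of this check were tried after the blocked counts had been seen, and with genes of mean log2 CPM above 1 (11333 genes) the values were 0.286, 0.203, 0.319, 0.125, 0.126 and 0.14, so the answer depends on the genes used. Depth (14613001 counts at least) limits low genes such as Cyp2g1 and Dbp at ZT24.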

Other observations

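Processed copies of some genes rose while their parent genes fell or were not called, a pattern singled out after its values were seen. Of 137 tested genes with names ending in -ps 15 were called higher and 4 lower, and of 548 annotated pseudogenes 30 and 10, or 7.3% against 2.58% of protein-coding genes. Ftl1, the ferritin light chain on chromosome 7 within 10 Mb of Dbp, had 320.5 and 270.0 CPM at ZT24 and 494 and 320.0 CPM at ZT04 in wild type and 72.4 and 72.1 CPM at ZT24 and 87.7 and 68.2 CPM at ZT04 in the knockout, a log2 change of -2.21 ± 0.22 (edgeR adjusted p = 3.55e-05). Its copy Ftl2-ps on chromosome 4 had 0.255 and 0.0557 CPM at ZT24 and 0.671 and 0.43 CPM at ZT04 in wild type and 159 and 159.7 CPM at ZT24 and 218 and 175 CPM at ZT04 in the knockout. All 4 knockout libraries of the copy lay far above all 4 wild-type libraries, at a change of 9.18 ± 0.43 (4.23e-09).

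Rpl3, on chromosome 15 within 10 Mb of Tef, fell by 0.91 on the log2 scale, and its copy Rpl3-ps1 on chromosome X had 1.94 and 1.39 CPM at ZT24 and 2.13 and 1.65 CPM at ZT04 in wild type and 32.2 and 36.8 CPM at ZT24 and 30.1 and 32.1 CPM at ZT04 in the knockout. Rps13 and Rps15a have their parent genes on chromosome 7, and called copies of both rose on other chromosomes. Rps13-ps1 had 2 counts over the 4 wild-type libraries together and 787 over the 4 knockout libraries (edgeR adjusted p = 4.96e-05) and no fold is given for it. Rps15a-ps6 changed by 4.53 ± 0.50 (8.86e-05). The parents changed by -0.43 ± 0.13 (Rps13, adjusted p = 0.116) and -0.53 ± 0.12 (Rps15a, 0.0309). Rps13-ps2, on chromosome 7 itself, went the other way, with 0.765 and 0.501 CPM at ZT24 and 1.1 and 0.358 CPM at ZT04 in wild type and 0 counts in the knockout. Reads of a parent and its copies can be shared by the counting, and the part of that in these values was not tested.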
